A study of Mus musculus with 26 samples.

Results

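The 8 genes described here encode the cytosolic chaperones of the HSP70 family and of its HSP110 branch in mouse: Hspa1a, Hspa1b, Hspa1l, Hspa2, Hspa8, Hspa4, Hspa4l and Hsph1. They were taken by gene symbol, not by any measured value, and all 8 were found among the 20430 genes of the RNA table and the 19941 genes of the ribosome footprint table. The cells were NIH3T3, a fibroblast line long established from mouse embryos, and they were stressed by heat, by hydrogen peroxide (H2O2, oxidative stress) or by potassium chloride (KCl, osmotic stress). Polyadenylated RNA was sequenced in 16 libraries of 8 groups: unstressed cells for the heat experiment, 44 °C for 2 h, 42 °C for 8 h, unstressed cells shared by H2O2 and KCl, and each of these agents for 2 h and for 7 h. Ribosome-protected fragments (footprints) were sequenced in 10 libraries of the 5 H2O2, KCl and shared control groups, with none for heat. Each group had 2 replicates, no group carries a gene alteration in the labels, and no source used here gives the doses of H2O2 and KCl. The labels do not say that replicates came from separate cultures, so the p-values below measure the spread between these libraries, which may be technical. Both heat groups share one control and the 4 H2O2 and KCl groups share another, so comparisons with the same control are not independent of each other.

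HSP70 proteins bind exposed hydrophobic stretches of unfolded proteins and release them in a cycle driven by ATP. HSP40 proteins (the Dnaj genes) bring clients and speed up ATP hydrolysis, and nucleotide exchange factors, among them the HSP110 proteins, make HSP70 release ADP and the client. Hspa8 encodes HSC70, the abundant form of unstressed cells. Hspa1a and Hspa1b encode the strictly stress-inducible HSP70, which heat shock factor 1 (HSF1) switches on by binding inverted repeats of the letters GAA. Hspa1l and Hspa2 are best known from testis and male germ cells. Hspa4, Hspa4l and Hsph1 encode the HSP110 proteins, and Hspa4l is known for its induction in osmotically stressed cells.

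The stretches before the start sites of Hspa1a and Hspa1b are shown first because these 2 genes had the largest RNA changes of the family at 42 °C and their upstream sequences are nearly the same. They lie on mouse chromosome 17, both on the minus strand, and each line runs 5′ to 3′ over the 250 bases before the annotated start (RefSeq, GRCm38.p6; chr17:34972157-34972406 and chr17:34959239-34959488). Capitals mark an inverted pair of the heat shock element core, GAANNTTC.
Hspa1a: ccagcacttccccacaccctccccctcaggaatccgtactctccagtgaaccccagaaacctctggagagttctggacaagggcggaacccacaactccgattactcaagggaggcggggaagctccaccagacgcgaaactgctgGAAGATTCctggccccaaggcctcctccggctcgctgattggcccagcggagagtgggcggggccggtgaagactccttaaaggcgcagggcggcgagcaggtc
Hspa1b: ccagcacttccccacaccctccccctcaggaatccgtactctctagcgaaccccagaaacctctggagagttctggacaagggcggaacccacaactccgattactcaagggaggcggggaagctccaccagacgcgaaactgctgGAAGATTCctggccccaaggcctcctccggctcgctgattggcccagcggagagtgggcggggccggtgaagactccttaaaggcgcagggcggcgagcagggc
The 2 windows have 247 of 250 bases in common (98.8%). From Hspa1a to Hspa1b, counted from the 5′ end of the window, they differ by C44T, T47C and T249G.

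The match GAAGATTC lies 104 to 97 bases before the start in both genes. Hsph1, on the minus strand of chromosome 5, holds the other inverted pair, TTCNNGAA, in the 30 bases at chr5:149636351-149636380, shown because it is the one other member with a match.
Hsph1: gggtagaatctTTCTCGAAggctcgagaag
That match is 54 to 47 bases before one start of Hsph1 used here and 33 to 26 bases before another. The annotated span of Hsph1, chr5:149616843-149636498, extends upstream past the match, so the match lies inside the annotated gene. Both motifs read the same on either strand. No match to either was found in the windows of Hspa1l, Hspa2, Hspa4 and Hspa4l, which says only that these letters are absent from the 250 bases. The windows of Hspa2 (chr12:76404120-76404369) and Hspa4l (chr3:40745363-40745612) lie inside the annotated genes, which begin at 76403812 and 40744500. The bases before those outer ends were not searched. GAANNTTC was in 6.69% and TTCNNGAA in 7.16% of all 32817 windows of this length, and one or the other was in 12.8%. Forms of either motif with a further GAA or TTC unit added after the same spacing, searched on both strands, were in 0.466% of windows and in no member, and TATAAA was in 12.4% and in no member. The promoter table held 7 of the 8 members, all except Hspa8.

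Hspa1a, Hspa1b and Hspa1l are neighbours. Hspa1a spans chr17:34969359-34972156 and Hspa1b chr17:34956429-34959238, both on the minus strand, with 10120 bases between the start of Hspa1b and the end of Hspa1a. Hspa1l, on the plus strand at chr17:34972703-34979228, starts 547 bases from the start of Hspa1a. No source used here says whether the counting used strand. Because Hspa1a and Hspa1b are near-identical, how reads were divided among the pair is uncertain, and their sum is given beside each.

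Library totals ran from 24441877 to 45244430 counts for RNA and from 1460751 to 5168537 counts for footprints. Log2 CPM of replicates correlated across genes at 0.994 to 0.996 for RNA and at 0.957 to 0.978 for footprints, so footprint values carry more error. Of 10 fibroblast markers, 9 were at 7.6 TPM (a level scaled for transcript length and library size) or more in every RNA library, and Fap was at 0.03 to 0.78 TPM. The summed level of the 10 was 9210 to 9282 TPM in the H2O2 and KCl control, 4179 to 4193 TPM after 7 h of H2O2 and 7820 to 11309 TPM in the other groups. The 8 germ cell markers summed to 0.03 to 0.95 TPM, with Tnp1, Prm2 and Acr at 0 in all 16 libraries. In bulk samples a change in the share of cells expressing a gene and a change in RNA per cell cannot be told apart.

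Levels of different genes are compared in TPM, which divides by transcript length. In unstressed cells Hspa8 supplied most of the members' RNA. It was at 2460 and 2435 TPM in the 2 heat control libraries and at 2478 and 2374 TPM in the H2O2 and KCl control, 83.1% to 84.3% and 80.9% to 82.4% of the summed TPM of the 8 genes. By mean TPM it ranked 32 and 36 of 20430 genes in the 2 controls. Hspa4 came next, at 184 and 183 TPM in the heat control and 198 and 211 TPM in the other control, then Hsph1 at 96.8 and 102 TPM and at 138 and 139 TPM. The inducible pair was low, with Hspa1b at 65.8 and 85.2 TPM in the heat control and 66.7 and 75.1 TPM in the other, and Hspa1a at 27.6 and 39.3 TPM and at 21.8 and 23.4 TPM. Hspa4l was at 62.8 and 63.7 TPM in the heat control, closer to Hspa1b than the spread between the Hspa1b replicates, and at 96.2 and 102 TPM in the other control. Hspa2 was at 9.21 to 23.5 TPM over the 4 control libraries. Hspa1l was at 0.46 to 0.99 TPM, from 18 to 46 counts a library, so its changes rest on few reads.

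**Figure D1:**
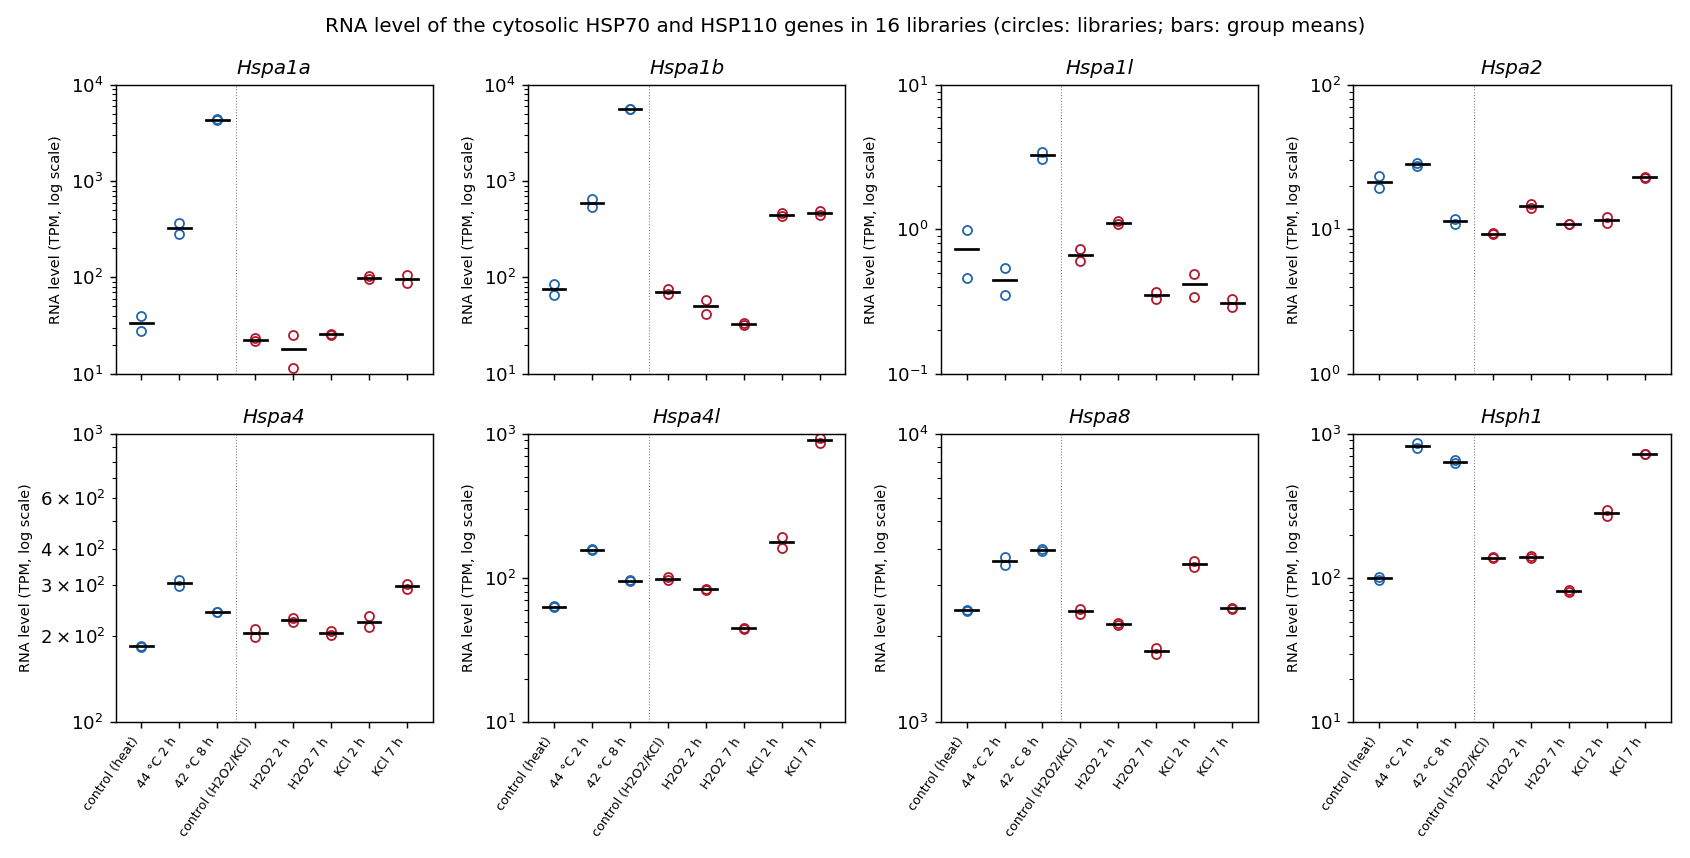
RNA level of each member in each library, in TPM on a log axis, with 1 panel per gene and 1 point per replicate. Hspa1a and Hspa1b reach their highest levels at 42 °C for 8 h, Hspa4l at 7 h of KCl, and Hspa8 stays at 1729 TPM or more in every library.

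The first question is how the family responded to the 2 heat treatments, which differ in both temperature and time. Both treatments raised the inducible pair, at 44 °C by about as much as Hsph1 and at 42 °C for 8 h by far more than any other member. The pair summed to 93.4 and 125 TPM in the control, 819 and 1023 TPM at 44 °C for 2 h, and 10086 and 9900 TPM at 42 °C for 8 h. The 3 groups did not overlap, and the pair made up 3.20% and 4.25%, 14.0% and 17.4%, and 67.0% and 66.8% of the members' TPM in turn. Changes between groups below are log2 fold changes on library-scaled counts (CPM) from edgeR's quasi-likelihood test, each with its standard error (SE), and a gene is called where its Benjamini-Hochberg adjusted p over all tested genes is under 0.05. The sum rose by 3.02 (SE 0.12, adjusted p = 5.72e-11, 8.11-fold) at 44 °C and by 6.71 (SE 0.14, adjusted p = 6.91e-14, 105-fold) at 42 °C, where its change ranked 8 of 12746 features. Between the treatments it was 3.69 (SE 0.12) higher at 42 °C for 8 h, with an adjusted p of 4.46e-12. Each gene of the pair rose in both treatments, Hspa1a from 27.6 and 39.3 TPM to 281 and 369.8 TPM and then 4469 and 4271 TPM, and Hspa1b from 65.8 and 85.2 TPM to 537 and 653 TPM and then 5617 and 5629 TPM. At 42 °C for 8 h Hspa1b and Hspa1a ranked 8 and 15 of 20430 genes by mean TPM, with Hspa8 at 18.

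Hsph1, the HSP110 with a match to the heat shock element core, rose at 44 °C by nearly as much as the summed pair and by slightly more than Hspa1b (2.92, SE 0.11). It was at 96.8 and 102 TPM in the control, 791 and 861 TPM at 44 °C and 626 and 654 TPM at 42 °C. Both heated groups lay above the control without overlap, and the rises were 2.99 (SE 0.06, adjusted p = 8.06e-14) and 2.80 (SE 0.06, adjusted p = 5.14e-14). Unlike the pair, it was lower at 42 °C for 8 h than at 44 °C for 2 h, by a log2 difference of -0.19 (SE 0.05) with an adjusted p of 0.00398. That call was lost without the second 44 °C replicate, where the difference was -0.10 (adjusted p = 0.0751).

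The other exchange factors and the constitutive Hspa8 moved by 1.05 or less on the log2 scale. Hspa4l was at 159.6 and 155 TPM at 44 °C and 95.3 and 97.0 TPM at 42 °C, and rose by 1.05 (SE 0.04, adjusted p = 3.66e-11) and by 0.79 (SE 0.04, adjusted p = 9.68e-10). Hspa4 was at 312 and 296 TPM and then 242 and 241.5 TPM, and rose by 0.67 (SE 0.04) and 0.59 (SE 0.04) with adjusted p-values of 2.24e-09 and 1.47e-08. Hspa8 was at 3734 and 3521 TPM and then 3992 and 3924 TPM, and rose by 0.50 (SE 0.04) and 0.88 (SE 0.04) with adjusted p-values of 6.25e-08 and 4.09e-10. For all 3 genes no heated library overlapped the control. Between the treatments Hspa8 was 0.38 (SE 0.04, adjusted p = 8.29e-07) higher at 42 °C for 8 h, Hspa4l was lower (-0.26, SE 0.04, adjusted p = 2.51e-05), and Hspa4 was not called (-0.08, SE 0.04, adjusted p = 0.0714).

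The testis-associated members took other courses. Hspa2 rose to 27.6 and 28.9 TPM at 44 °C from 19.2 and 23.5 TPM, by 0.35 (SE 0.09, adjusted p = 0.00223), and fell to 11.8 and 10.8 TPM at 42 °C, by 0.71 (SE 0.09, adjusted p = 1.42e-05). It was the one member called in opposite directions in the 2 heat treatments, and it was lower at 42 °C for 8 h than at 44 °C for 2 h (-1.06, SE 0.09, adjusted p = 1.09e-07). Hspa1l, from 147 and 106 counts, was at 3.43 and 3.08 TPM at 42 °C against 0.99 and 0.46 TPM in the control and rose by 2.33 (SE 0.27, adjusted p = 3.61e-06). At 44 °C it was at 0.35 and 0.54 TPM, overlapping the control, and was not called (-0.80, SE 0.38, adjusted p = 0.0689). It was called lower there in 3 of 10 alternatives, without the filter on low counts (-0.81, adjusted p = 0.0161), without the second control replicate (-1.23, adjusted p = 0.00671) and without the second 44 °C replicate (-1.14, adjusted p = 0.0449). The rise of Hspa1l at 42 °C went with a level of Hspa1a, its neighbour on the other strand, of 4271 TPM or more. What part reads from Hspa1a had in it was not tested. The authors' estimate of transcription entering Hspa1l from Neu1, upstream of it, was 0.105 and 0 in the heat control. It was 1.115 and 1.271 at 44 °C and 0.739 and 0.889 at 42 °C, and its part in the rise was not tested.

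In all, 7 of 8 members were called at 44 °C, all higher, where 71.0% of tested genes were called, 35.4% higher and 35.7% lower. At 42 °C all 8 were called, 7 higher and 1 lower, where 63.6% of genes were called, 31.7% higher and 31.9% lower. The median change over the 8 was 0.86 at 44 °C and 1.60 at 42 °C, beside 0.00 and -0.01 over all tested genes. Between the treatments 7 of 8 members differed, 4 higher and 3 lower at 42 °C, where 75.1% of genes were called, 37.9% higher and 37.2% lower. All 10 fibroblast markers were lower at 44 °C, with a median of -0.44, and at 42 °C 7 were lower and 2 higher. Their part in these results was not tested. In TPM the 42 °C comparisons had a shift of the overall gene median by -0.15 against the control and by -0.20 against 44 °C, so levels in TPM and changes in normalized CPM differ there. With limma on log2(TPM + 1), 23.6% of the calls at 42 °C were higher, against 49.8% in the edgeR fit, and of those against 44 °C 28.9%, against 50.4%. Every call on a member in both heat treatments against control kept its direction.

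**Figure D2:**
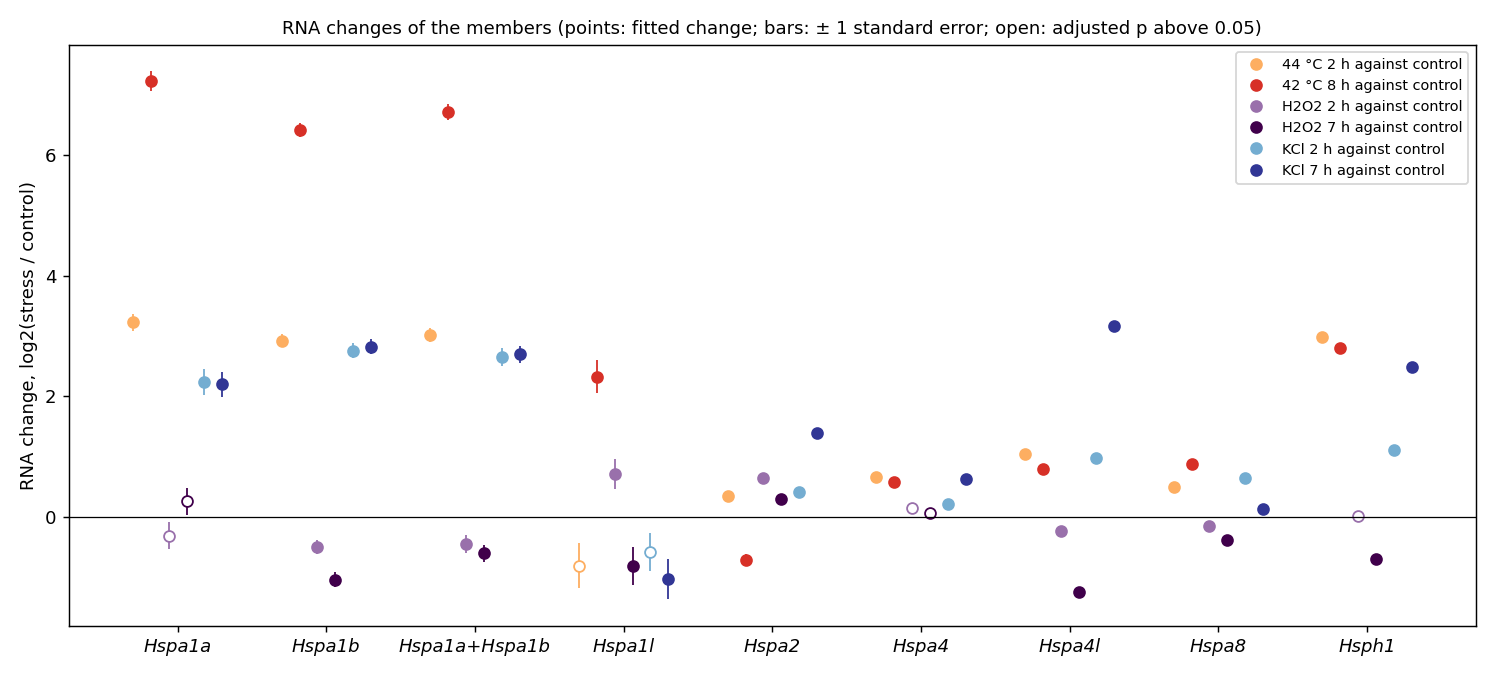
Log2 fold change of each member's RNA, and of the sum of Hspa1a and Hspa1b, against the control of its experiment, with bars of 1 SE and open symbols where the adjusted p is above 0.05. The sum rises by 6.71 at 42 °C for 8 h and by 2.69 at 7 h of KCl, and falls by 0.60 at 7 h of H2O2, while Hspa4l rises by 3.16 at 7 h of KCl.

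KCl, the osmotic stress, raised the inducible pair and all 3 HSP110 genes by 2 h, and by 7 h the HSP110 genes had risen further. The pair summed to 88.4 and 98.5 TPM in the control, 534 and 564 TPM at 2 h and 527 and 601 TPM at 7 h. Both KCl groups lay above the control and overlapped each other. The rises were 2.65 (SE 0.15, adjusted p = 3.60e-09, 6.28-fold) at 2 h and 2.69 (SE 0.15, adjusted p = 1.92e-09, 6.47-fold) at 7 h, and the difference between the times was 0.04 (SE 0.14, adjusted p = 0.791). Hspa1a was at 104 and 96.1 TPM and then 86.7 and 107 TPM, from 21.8 and 23.4 TPM. Hspa1b was at 431 and 468 TPM and then 440.3 and 494 TPM, from 66.7 and 75.1 TPM.

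Hspa4l, the osmotic stress member of the HSP110 branch, showed the largest change of the 8 at 7 h of KCl. It was at 96.2 and 102 TPM in the control, 162 and 191 TPM at 2 h and 866 and 933 TPM at 7 h. The 3 groups did not overlap, with the 7 h libraries highest. The rise was 0.98 (SE 0.08, adjusted p = 3.18e-07) at 2 h and 3.16 (SE 0.09, adjusted p = 5.20e-12, 8.96-fold) at 7 h, rank 239 of 13256 genes, and the 7 h group was 2.19 (SE 0.09, adjusted p = 1.26e-10) above the 2 h group. Its share of the members' TPM went from 3.20% and 3.46% in the control to 17.7% and 18.3% at 7 h.

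Hsph1 followed the same order, with 138 and 139 TPM in the control, 270.4 and 296 TPM at 2 h and 723 and 728 TPM at 7 h. No library of one group overlapped another. It rose by 1.12 (SE 0.06, adjusted p = 1.78e-09) and by 2.49 (SE 0.06, adjusted p = 1.50e-12), and was 1.37 (SE 0.06, adjusted p = 1.86e-10) higher at 7 h than at 2 h. Hspa4, the third HSP110 gene, was at 213 and 234 TPM at 2 h and 290.5 and 301 TPM at 7 h, from 198 and 211 TPM. It rose by 0.22 (SE 0.06, adjusted p = 0.00653) and by 0.63 (SE 0.06, adjusted p = 4.21e-07), and was 0.41 (SE 0.06, adjusted p = 2.81e-05) higher at 7 h than at 2 h. The 2 h call was lost without the first control replicate (0.18, adjusted p = 0.0666), without the second KCl replicate (0.16, adjusted p = 0.0607) and with limma on log2(TPM + 1) (0.13, adjusted p = 0.0854).

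Hspa8 had its highest KCl level at 2 h. It was at 2478 and 2374 TPM in the control, 3461 and 3618 TPM at 2 h and 2475 and 2500 TPM at 7 h. The 2 h libraries stood above all others and the 7 h libraries overlapped the control. It rose by 0.64 (SE 0.06, adjusted p = 4.77e-07) at 2 h and was lower at 7 h than at 2 h (-0.50, SE 0.06, adjusted p = 2.61e-06). At 7 h the change from control was 0.14 (SE 0.06, adjusted p = 0.0471), a call lost in 8 of 10 alternatives. Among these, it was 0.10 (adjusted p = 0.238) without the second control replicate, and 0.13 (adjusted p = 0.133) and 0.14 (adjusted p = 0.0971) without the first and the second 7 h replicate.

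Hspa2 rose with KCl, from 9.21 and 9.43 TPM to 12.1 and 11.1 TPM at 2 h and 22.7 and 23.2 TPM at 7 h. The changes were 0.41 (SE 0.08, adjusted p = 8.24e-04) and 1.40 (SE 0.08, adjusted p = 2.67e-09), and the 7 h group was 0.98 (SE 0.08, adjusted p = 9.24e-08) above the 2 h group. Hspa1l was at 0.49 and 0.34 TPM at 2 h and 0.33 and 0.29 TPM at 7 h, from 7 to 14 counts a library, against 0.73 and 0.60 TPM in the control. It was not called at 2 h (-0.58, SE 0.31, adjusted p = 0.137) and fell by 1.02 (SE 0.34, adjusted p = 0.0143) at 7 h. That call was lost with DESeq2 (-1.04, adjusted p = 0.0952), without the first control replicate (-0.88, adjusted p = 0.0890) and without the second 7 h replicate (-0.88, adjusted p = 0.0874).

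At 2 h of KCl 7 of 8 members were called, all higher, where 54.2% of genes were called, 27.2% higher and 27.0% lower. At 7 h all 8 were called, 7 higher and 1 lower, where 68.8% of genes were called, 37.2% higher and 31.6% lower. The members' median change was 0.81 at 2 h and 1.80 at 7 h, beside 0.00 and 0.04 over all tested genes. Of the 10 fibroblast markers, 5 were higher and none lower at 2 h, with a median of 0.28, and 4 were higher and 4 lower at 7 h, with a median of 0.14. Their part in these results was not tested. Between 2 h and 7 h, 5 of 8 members differed, 4 higher and 1 lower at 7 h, where 68.8% of genes were called, 35.1% higher and 33.7% lower. With limma on log2(TPM + 1) 36.1% of all calls at 2 h were higher, against 50.2% in the edgeR fit, and no call on a member changed sign.

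H2O2, the oxidative stress, did not raise the RNA of the inducible pair. The pair summed to 88.4 and 98.5 TPM in the control, 83.9 and 53.4 TPM at 2 h and 59.5 and 57.0 TPM at 7 h. All 4 H2O2 libraries lay below both controls. The sum fell by 0.45 (SE 0.14, adjusted p = 0.0168) at 2 h and by 0.60 (SE 0.14, adjusted p = 0.00180) at 7 h, and the difference between the times was -0.16 (SE 0.15, adjusted p = 0.342). The 2 h call rests on the second 2 h library: without it the change was -0.16 (adjusted p = 0.199), and it was also lost without the second control replicate (-0.38, adjusted p = 0.103) and with DESeq2 (-0.44, adjusted p = 0.0738). The fall was assigned to Hspa1b, at 66.7 and 75.1 TPM in the control, 58.9 and 41.9 TPM at 2 h and 33.4 and 32.1 TPM at 7 h, with changes of -0.49 (SE 0.12, adjusted p = 0.00308) and -1.03 (SE 0.12, adjusted p = 3.15e-06). Hspa1a, at 24.98 and 11.6 TPM and then 26.1 and 24.95 TPM, was not called at either time (adjusted p = 0.256 and 0.295).

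The HSP110 genes and Hspa8 were lower at 7 h of H2O2, apart from Hspa4. Hspa4l was at 96.2 and 102 TPM in the control, 82.4 and 84.4 TPM at 2 h and 44.6 and 45.0 TPM at 7 h. The groups did not overlap, and it fell by 0.24 (SE 0.08, adjusted p = 0.0294) and by 1.24 (SE 0.09, adjusted p = 1.18e-08). The 2 h call was lost without the second control replicate (-0.19, adjusted p = 0.152) and without the second 2 h replicate (-0.28, adjusted p = 0.0557). Hsph1 was at 138 and 143 TPM at 2 h, overlapping the control and not called (0.01, SE 0.06, adjusted p = 0.892), and at 80.6 and 82.6 TPM at 7 h, where it fell by 0.69 (SE 0.06, adjusted p = 8.57e-08). Hspa8 was at 2175 and 2215 TPM at 2 h and 1814 and 1729 TPM at 7 h, with changes of -0.15 (SE 0.06, adjusted p = 0.0456) and -0.37 (SE 0.06, adjusted p = 4.33e-05). Its 2 h call was lost in 7 of 10 alternatives, with adjusted p-values of 0.208 without the first control replicate and 0.0545 and 0.118 without the first and the second 2 h replicate. Hspa4 was at 223.5 and 229.7 TPM and then 200.4 and 207 TPM, and was not called at 2 h (0.15, SE 0.06, adjusted p = 0.0505) or 7 h (0.08, SE 0.06, adjusted p = 0.271). At 2 h it was called higher in 4 of 10 alternatives, with adjusted p-values from 0.0324 to 0.0490. These were RLE normalization, DESeq2, the replicate block and only the groups compared.

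Hspa2 rose with H2O2, to 14.1 and 15.0 TPM at 2 h and 10.9 and 10.9 TPM at 7 h, by 0.64 (SE 0.08, adjusted p = 1.31e-05) and 0.31 (SE 0.08, adjusted p = 0.00440). The 7 h call was lost without the first 7 h replicate (0.23, adjusted p = 0.0947). Hspa1l was at 1.08 and 1.14 TPM at 2 h and 0.37 and 0.33 TPM at 7 h, from 10 to 41 counts, with changes of 0.71 (SE 0.24, adjusted p = 0.0244) and -0.81 (SE 0.31, adjusted p = 0.0314). The 2 h call was lost in 5 of 10 alternatives, among them each of the 4 that leave out a library, with adjusted p-values from 0.0536 to 0.130. The 7 h call was lost in 4 of 10, among them without the first control replicate (-0.67, adjusted p = 0.163) and without either 7 h replicate (-0.95 and -0.77, adjusted p = 0.0820 and 0.114).

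At 2 h of H2O2 5 of 8 members were called, 2 higher and 3 lower, where 53.9% of genes were called, 27.3% higher and 26.5% lower. At 7 h 6 were called, 1 higher and 5 lower, where 70.5% of genes were called, 39.4% higher and 31.1% lower. The members' median change was -0.07 at 2 h and -0.53 at 7 h, beside 0.00 and 0.08 over all genes. From 2 h to 7 h 6 members fell and Hspa1a rose, where 73.4% of genes were called, 37.3% higher and 36.1% lower. The Hspa1a difference of 0.57 (SE 0.22, adjusted p = 0.0337) rests on the second 2 h library, without which it was 0.11 (adjusted p = 0.418), and it was also lost without either 7 h replicate (adjusted p = 0.112 and 0.0687). The fibroblast markers moved with the 7 h fall of the members, with 9 of 10 called lower, none higher and a median change of -1.03, and their part in the result was not tested.

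Set against each other at the same time, the 2 agents left the pair at very different RNA levels. The sum was lower in H2O2 than in KCl, with log2 differences of -3.10 (SE 0.15, adjusted p = 1.26e-09) at 2 h and -3.30 (SE 0.15, adjusted p = 7.86e-11) at 7 h. At 7 h Hspa4l differed most, by -4.40 (SE 0.10, adjusted p = 6.86e-14), and Hsph1 by -3.18 (SE 0.06, adjusted p = 2.17e-14). Hspa8 was lower in H2O2, by differences of -0.79 (SE 0.06) at 2 h and -0.51 (SE 0.06) at 7 h, with adjusted p-values of 7.90e-08 and 1.37e-06. Hspa4 was not called at 2 h (-0.07, adjusted p = 0.340) and was lower in H2O2 at 7 h (-0.56, SE 0.06, adjusted p = 8.63e-07). At 2 h 7 of 8 members differed, 5 lower and 2 higher in H2O2, where 51.3% of genes were called, 24.2% lower and 27.0% higher. With limma on log2(TPM + 1) 68.2% of all calls at 2 h were higher in H2O2, against 52.7% in the edgeR fit. The 2 higher ones were Hspa1l, by 1.29 (SE 0.30, adjusted p = 0.00251), and Hspa2, by 0.23 (SE 0.08, adjusted p = 0.0312). The Hspa2 call was lost in 6 of 10 alternatives, among them without the first and the second H2O2 replicate (adjusted p = 0.0575 and 0.172) and without the second KCl replicate (adjusted p = 0.223). At 7 h 7 members differed, all lower in H2O2, where 78.4% of genes were called, 37.4% lower and 41.0% higher, and Hspa1l was not called (0.21, SE 0.40, adjusted p = 0.667).

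**Figure D3:**
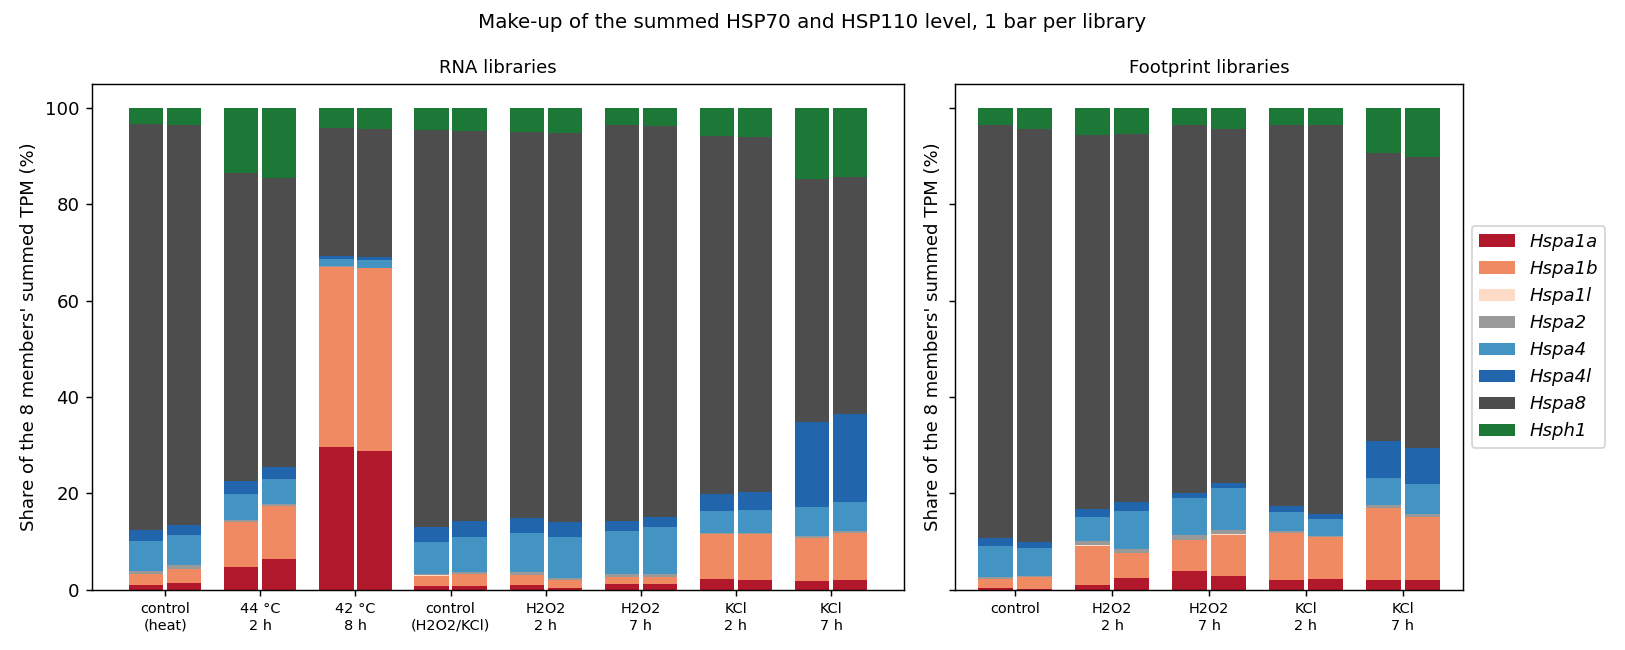
Share of the members' summed TPM taken by each gene, as stacked bars from 0 to 100%, 1 bar per RNA library and per footprint library. Hspa8 holds 80.9% to 84.3% in unstressed RNA libraries and 26.5% at 42 °C for 8 h, where the Hspa1a and Hspa1b segments hold 66.8% to 67.0%.

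Footprints count fragments held by ribosomes, so they add to the RNA level how much of it was occupied. Both kinds of level are scaled within their own libraries, so a rise or fall is relative to other genes. No value used here measures total translation, so absolute amounts of ribosomes on a gene's RNA cannot be read from these changes. Under H2O2 the pair's footprints went up while its RNA went down. The pair's footprints summed to 60.9 and 78.5 TPM in the control, 187 and 136 TPM at 2 h and 197 and 184 TPM at 7 h. All 4 H2O2 libraries lay above both controls, the reverse of their order in RNA. The footprint sum rose by 1.27 (SE 0.21, adjusted p = 0.00866, 2.41-fold) at 2 h and by 1.33 (SE 0.21, adjusted p = 4.06e-04, 2.51-fold) at 7 h. The 2 h call was lost without the first footprint control replicate (1.07, adjusted p = 0.0880) and with only the groups compared in the fit (1.27, adjusted p = 0.105). In TPM, the ratio of mean footprint level to mean RNA level of the pair was 0.746 in the control. It was 2.35 after 2 h of H2O2 and 3.27 after 7 h, and KCl gave 0.999 after 2 h and 1.28 after 7 h.

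The change of footprints relative to RNA was tested as an interaction in one model over both kinds of library, and is called the translational efficiency change here. For the pair it was 1.68 (SE 0.26, adjusted p = 8.18e-04) at 2 h and 1.93 (SE 0.26, adjusted p = 3.84e-04) at 7 h of H2O2, ranks 108 and 127 of 10479 features. Both were called in all 14 alternatives, with ranges of 1.38 to 2.03 and 1.73 to 2.19. Hspa1a and Hspa1b were each called higher at both times, Hspa1a by 2.57 (SE 0.48, adjusted p = 0.00271) and 2.64 (SE 0.47, adjusted p = 0.00217), and Hspa1b by 1.55 (SE 0.31, adjusted p = 0.00448) and 1.99 (SE 0.31, adjusted p = 9.56e-04). The 2 h value of Hspa1b was 1.55 (adjusted p = 0.0626) with only the groups compared in the fit. Hspa1a footprints rested on 66 and 45 counts in the control and on 62 and 460 counts at 2 h. The 2 h footprint replicates were at 20.1 and 43.3 TPM for Hspa1a and at 167 and 92.7 TPM for Hspa1b. These values of single genes depend on how reads common to both were assigned. For KCl the pair's efficiency change was 0.37 (SE 0.26, adjusted p = 0.385) at 2 h and 0.74 (SE 0.26, adjusted p = 0.108) at 7 h and was not called. Whether the efficiency changes differ between H2O2 and KCl was not tested. The 9 fibroblast markers tested also had positive median efficiency changes in H2O2, of 0.38 at 2 h with none called and of 0.56 at 7 h with 3 called higher and none lower. Their footprint median at 7 h was -0.60, with 4 called lower and none higher, and their part in these results was not tested.

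The constitutive Hspa8 went the other way under H2O2. Its footprints were at 2381 and 2457 TPM in the control, 1585 and 1361 TPM at 2 h and 1456 and 1180 TPM at 7 h. All 4 H2O2 libraries lay below both controls. The footprint change was -0.65 (SE 0.18, adjusted p = 0.0922) at 2 h, not called, and it fell by 0.99 (SE 0.18, adjusted p = 0.00139) at 7 h. Its efficiency fell by 0.54 (SE 0.17, adjusted p = 0.0450) and by 0.62 (SE 0.17, adjusted p = 0.0277). These efficiency calls were lost in 10 and in 6 of 14 alternatives, and at 7 h leaving out any 1 of 6 of the 8 libraries involved gave adjusted p-values from 0.0837 to 0.141. At 2 h, leaving out any 1 of 7 of the 8 libraries gave adjusted p-values from 0.0516 to 0.150.

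**Figure D4:**
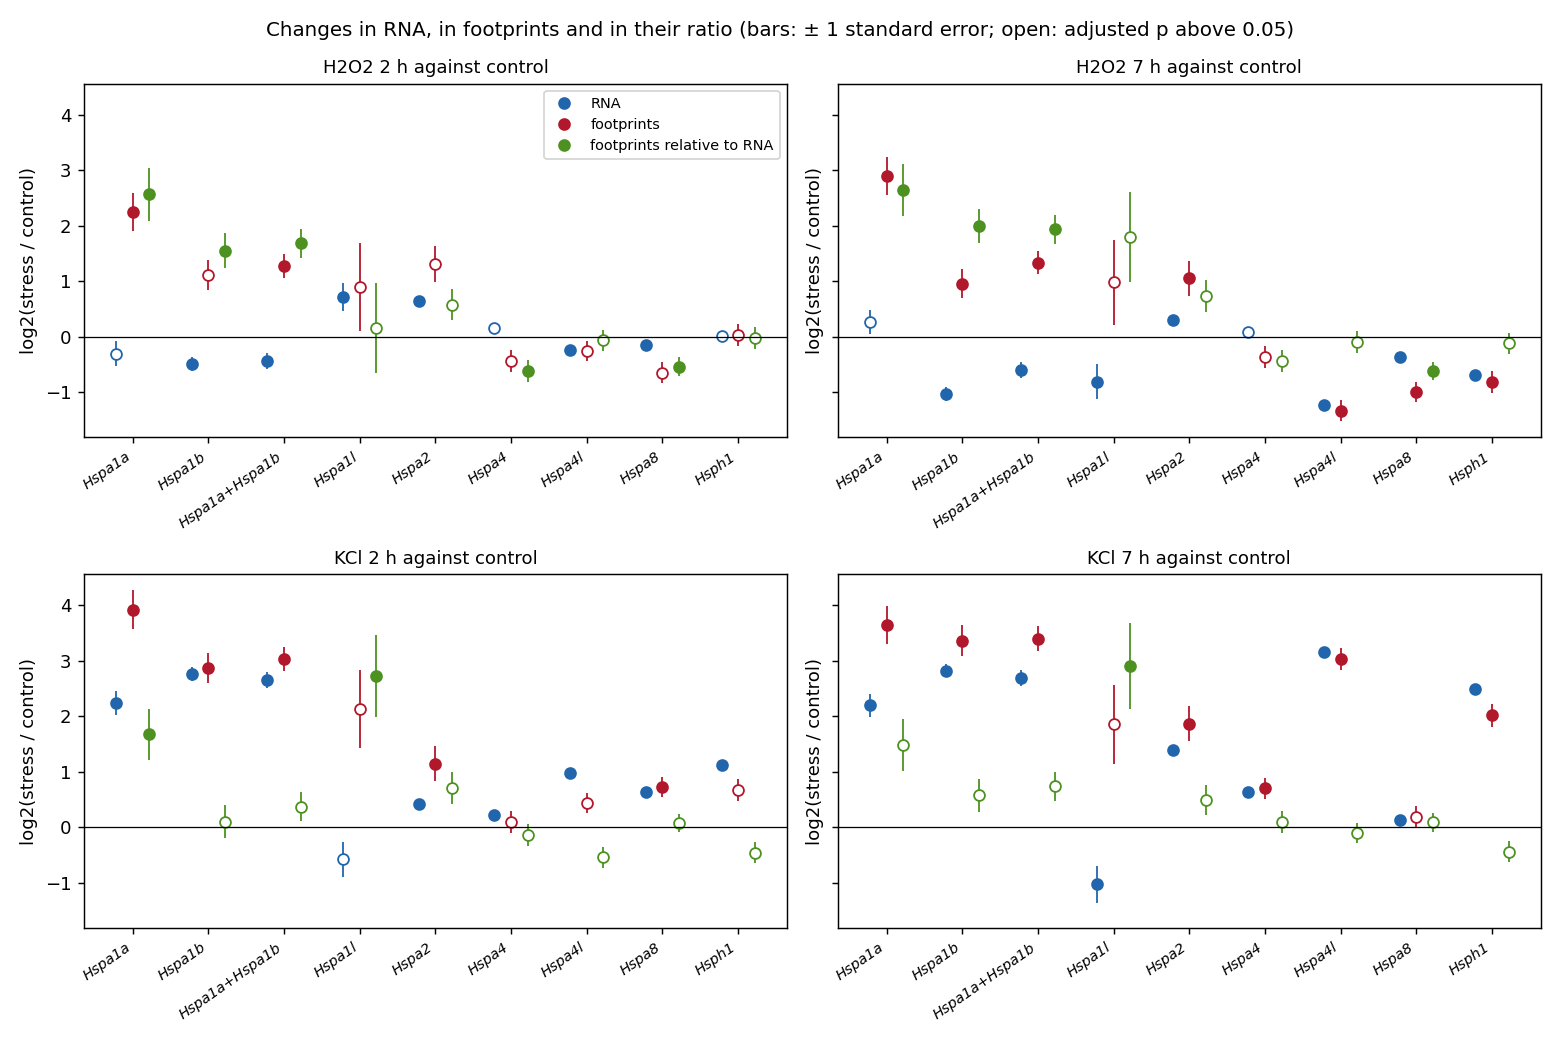
Log2 change against control of RNA, of footprints and of their ratio for each member and for the pair, in 4 panels for H2O2 and KCl at 2 h and 7 h, with bars of 1 SE and open symbols where the adjusted p is above 0.05. In the H2O2 panels the pair's RNA lies below 0 and its footprints above 0, and in the KCl panels both lie above 0.

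Footprints of Hspa4l and Hsph1, like their RNA, were lowest at 7 h of H2O2 and highest at 7 h of KCl. Hspa4l footprints were at 47.6 and 37.2 TPM in the control, 33.9 and 33.5 TPM at 2 h and 20.1 and 16.4 TPM at 7 h of H2O2, and 60.9 and 50.5 TPM and 325 and 352 TPM in KCl. The 7 h KCl libraries stood far above the rest and the 7 h H2O2 libraries were lowest. Footprints fell by 1.33 (SE 0.19, adjusted p = 1.88e-04) at 7 h of H2O2 and rose by 3.03 (SE 0.19, adjusted p = 2.96e-06, 8.18-fold) at 7 h of KCl. At 2 h the changes, -0.26 (SE 0.18, adjusted p = 0.496) in H2O2 and 0.44 (SE 0.18, adjusted p = 0.179) in KCl, were not called. Its ratio of footprint to RNA level was 0.316 to 0.429 over the 5 groups, and its efficiency change was not called in any of the 4 comparisons, the nearest being -0.54 (SE 0.19, adjusted p = 0.0655) at 2 h of KCl.

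Hsph1 footprints were at 102 and 124 TPM in the control, 115.5 and 97.0 TPM and then 68.8 and 70.0 TPM in H2O2, and 168 and 181 TPM and then 405 and 488 TPM in KCl. They fell by 0.82 (SE 0.20, adjusted p = 0.00769) at 7 h of H2O2 and rose by 2.02 (SE 0.20, adjusted p = 5.42e-05) at 7 h of KCl. The H2O2 call was lost without the second control replicate (-0.65, adjusted p = 0.0795) and without the first 7 h replicate (-0.80, adjusted p = 0.0578). At 2 h Hsph1 footprints overlapped the control in H2O2 (0.03, adjusted p = 0.970), and in KCl they lay above it without being called (0.67, SE 0.20, adjusted p = 0.0600).

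Hspa4 footprints were at 179 and 163.5 TPM in the control, 101 and 138 TPM and then 148 and 140.3 TPM in H2O2, and 179.7 and 173 TPM and then 243 and 302 TPM in KCl. They rose at 7 h of KCl, by 0.70 (SE 0.19, adjusted p = 0.0218). That call was lost without either control replicate (adjusted p = 0.0782 and 0.119) and without the second 7 h replicate (0.54, adjusted p = 0.161). The Hspa4 efficiency fell by 0.62 (SE 0.19, adjusted p = 0.0456) at 2 h of H2O2, a call lost in 9 of 14 alternatives, with adjusted p-values from 0.0609 to 0.133 without any 1 of 7 of the 8 libraries.

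Hspa8 footprints in KCl were at 3695 and 4040 TPM at 2 h and 2555 and 2859 TPM at 7 h, all above the control. They rose by 0.73 (SE 0.18, adjusted p = 0.0320) at 2 h, a call lost in 6 of 10 alternatives, and were not called at 7 h (0.19, SE 0.18, adjusted p = 0.473). Without any 1 of the 4 libraries of the 2 h comparison the adjusted p was 0.0696 to 0.192. The pair's footprints in KCl were at 551 and 546 TPM at 2 h and 724 and 715.5 TPM at 7 h, and rose by 3.03 (SE 0.22, adjusted p = 3.27e-05, 8.14-fold) and 3.40 (SE 0.22, adjusted p = 2.86e-06, 10.5-fold). The 4 KCl libraries lay above all 6 others.

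Hspa2 footprints rested on 30 to 170 counts a library, at 10.2 and 4.13 TPM in the control, 19.1 and 15.4 TPM and then 17.9 and 14.4 TPM in H2O2, and 16.8 and 14.0 TPM and then 27.1 and 24.4 TPM in KCl. Every stressed library lay above both controls. They rose by 1.05 (SE 0.32, adjusted p = 0.0248) at 7 h of H2O2, by 1.15 (SE 0.32, adjusted p = 0.0472) at 2 h of KCl and by 1.87 (SE 0.31, adjusted p = 0.00162) at 7 h of KCl. At 2 h of H2O2 the change was 1.30 (SE 0.32, adjusted p = 0.0558). It was called there with DESeq2 (adjusted p = 0.0140), without the filter on low counts (adjusted p = 0.0151) and with the replicate block (adjusted p = 0.0295). Without the second control library the changes were 0.57 (adjusted p = 0.211) at 7 h of H2O2 and 0.68 (adjusted p = 0.270) at 2 h of KCl. These 2 calls were also lost without either stressed replicate, with adjusted p-values of 0.150 and 0.0791 for H2O2 and 0.201 and 0.131 for KCl. Hspa1l had 3 to 23 footprint counts a library and no footprint change against control was called. Its efficiency was called higher at 2 h (2.73, SE 0.74, adjusted p = 0.0216) and 7 h (2.91, SE 0.77, adjusted p = 0.0372) of KCl, calls lost in 5 and 8 of 14 alternatives, 4 and 7 of them leaving out 1 library (adjusted p from 0.0700 to 0.123 and from 0.0560 to 0.112).

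Among footprints 1 of 8 members was called at 2 h of H2O2, where 1.91% of genes were called, 1.14% higher and 0.768% lower. It was Hspa1a, which rose by 2.24 (SE 0.34, adjusted p = 0.00586), a call lost in 3 of 10 alternatives. These were without the second control replicate (2.06), with only the groups compared in the fit (2.23, adjusted p = 0.0617) and with limma on log2(TPM + 1) (1.89, adjusted p = 0.0501). Hspa1b, not called at 2 h of H2O2, was called higher with RLE normalization (1.12, adjusted p = 0.0496) and with DESeq2 (1.12, adjusted p = 0.00193). It was also called without the filter on low counts (1.10, adjusted p = 0.00906). At 7 h of H2O2 6 were called, 3 higher and 3 lower, where 27.7% were called, 17.2% higher and 10.6% lower. At 2 h of KCl 4 were called, all higher, where 6.86% were called, 1.79% higher and 5.06% lower. At 7 h 6 were called, all higher, where 20.4% were called, 10.5% higher and 9.83% lower. The members' medians were 0.46, 0.30, 0.94 and 1.94 in turn, beside -0.02 to 0.01 over all genes. Of the 3 higher at 7 h of H2O2, Hspa1a rose by 2.90 (SE 0.34, adjusted p = 4.17e-05) and Hspa1b by 0.96 (SE 0.26, adjusted p = 0.0151). The Hspa1b call was lost without the first control replicate (0.67, adjusted p = 0.146) and without the second 7 h replicate (0.76, adjusted p = 0.130). For efficiency, 4 members were called at 2 h of H2O2, 2 higher and 2 lower, where 11.4% of genes were called, 3.98% higher and 7.46% lower. At 7 h 3 were called, 2 higher and 1 lower, where 9.27% were called, 4.69% higher and 4.57% lower. In KCl 2 were called at 2 h, both higher, where 12.8% were called, 3.58% higher and 9.18% lower, and 1 at 7 h, also higher, where 5.57% were called, 1.69% higher and 3.88% lower. One of those at 2 h was Hspa1a (1.67, SE 0.46, adjusted p = 0.0235), a call lost in 7 of 14 alternatives, with adjusted p-values from 0.0515 to 0.0837 in the 6 that leave out 1 library.

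Between the agents, footprints of the pair were lower in H2O2 than in KCl, with log2 differences of -1.75 (SE 0.21, adjusted p = 8.00e-04) at 2 h and -2.07 (SE 0.21, adjusted p = 8.69e-06) at 7 h. Hspa4l footprints were lower at 7 h (-4.36, SE 0.20, adjusted p = 2.97e-08) and Hspa8 footprints at 2 h (-1.38, SE 0.19, adjusted p = 0.00137). In all, 4 of 8 members were called at 2 h, where 5.12% of genes were, 3.03% higher and 2.10% lower, and 6 at 7 h, where 41.2% were, 23.5% higher and 17.8% lower. All of these members were lower in H2O2. Of those at 2 h, Hspa4l (-0.71, adjusted p = 0.0444) was lost in 7 of 10 alternatives, including without any 1 of the 4 libraries (adjusted p from 0.110 to 0.199). Hspa1a was lost without the second KCl replicate (-1.53, adjusted p = 0.0649). Of those at 7 h, Hspa2 (-0.82, adjusted p = 0.0395) was lost in 5 of 10, including without any 1 of the 4 libraries (adjusted p from 0.0894 to 0.163). From 2 h to 7 h, 2 members were called for H2O2, both lower, where 29.8% of genes were called, 18.7% higher and 11.1% lower. For KCl 3 were called, all higher, where 20.6% were called, 12.1% higher and 8.43% lower. On the TPM scale the median of all footprint changes shifted by 0.10 at 7 h of H2O2, by 0.18 from 2 h to 7 h of H2O2 and by 0.12 between the agents at 7 h. With limma on log2(TPM + 1) the higher share of footprint calls was 80.0% at 2 h of H2O2, against 59.7% in the edgeR fit, and 74.3% at 7 h, against 61.9%. From 2 h to 7 h of H2O2 it was 77.5%, against 62.7%, and between the agents at 7 h 68.3%, against 56.9%.

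The division of the pair's counts between its genes is a description only, since it depends on how reads common to both were assigned. Hspa1a held 29.4% and 31.5% of the pair's RNA counts in the heat control, 34.3% and 36.04% after 44 °C, and 44.2% and 43.0% after 42 °C. It held 24.6% and 23.7% in the other control. In H2O2 it held 29.7% and 21.6% at 2 h, then 43.8% and 43.7% at 7 h, and in KCl 19.3% and 17.0%, then 16.4% and 17.8%. The share was highest in the 42 °C and the 7 h H2O2 libraries, although the pair had 397281 and 506456 counts in the former and 1912 and 2605 in the latter. In footprints it ranged from 7.81% to 37.4%, with replicates as far apart as 10.7% and 31.8% at 2 h of H2O2.

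**Figure D5:**
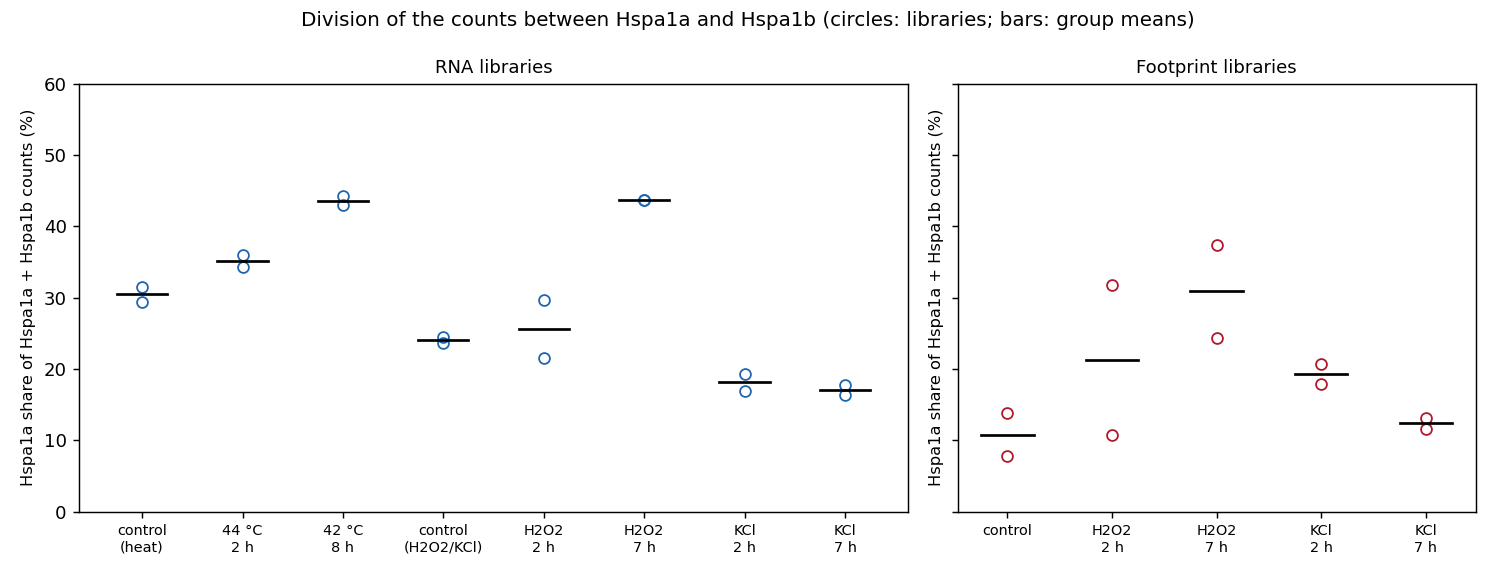
Hspa1a counts as a percent of the summed counts of Hspa1a and Hspa1b, 1 point per library, for RNA and for footprints. RNA replicates lie close together except at 2 h of H2O2, with the highest shares at 42 °C for 8 h and 7 h of H2O2 and the lowest in KCl, and footprint replicates are wider apart.

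The authors' deposited tables also record, for 6399 pairs of neighbouring genes, whether transcription ran past the end of the upstream gene (DoG, downstream of gene) and whether it entered the downstream gene (read-in). In 9 pairs at least 1 gene was a member, and 6 members were upstream. Over all pairs 19.4% to 35.7% had a DoG call and 0.547% to 2.95% a read-in call in a library. The DoG share was 24.2% to 27.9% in control libraries and 30.5% to 35.7% in heat and at 2 h of either agent. At 7 h of either agent it was 19.4% to 23.75%. No source used here says how these calls and the read-in estimates were computed, and they are stated without a test.

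Past Hspa4l, on chromosome 3, a DoG was called in all 16 libraries, and 3847 bases separate its end from the start of Plk4, a kinase gene of centriole duplication. Read-in to Plk4 was called in both libraries of 2 h of KCl and in none of the other 14. The deposited estimate was 0.386 and 0.317 there, 0 and 0 in the control and 0.00682 and 0.0205 at 7 h of KCl, where the Hspa4l level was higher still, at 866 and 933 TPM. Plk4 RNA rose by 0.60 (SE 0.06, adjusted p = 1.33e-06) at 2 h and by 0.27 (SE 0.06, adjusted p = 0.00119) at 7 h of KCl in edgeR's test. By the same test it rose by 0.452 (adjusted p = 8.92e-07) at 42 °C, where the estimates were 0.0193 and 0.0147. Its changes were -0.146 (adjusted p = 0.0104) at 44 °C, and -0.048 (adjusted p = 0.522) and -0.497 (adjusted p = 4.51e-06) at 2 h and 7 h of H2O2. What part read-in had in Plk4 RNA was not tested. Past Hspa1a, DoGs were called in 7 of 12 stressed and 0 of 4 control libraries, with read-in to Hspa1b called in both 42 °C libraries at estimates of 0.000845 and 0.00134, beside 0.00156 and 0.00143 in the heat control, which had no call. Past Hspa1b and past Hspa8, DoGs were called in 6 of 12 stressed and 0 of 4 control libraries each, and past Hsph1 in 8 of 12 and 1 of 4. Past Hspa1l they were called in 1 of 12 and 0 of 4. For genes upstream of a member the calls were 10 of 12 and 4 of 4 past D17H6S56E-5, before Hspa1a. They were 2 of 12 and 1 of 4 past Clmp, before Hspa8, and 0 of 12 and 1 of 4 past Neu1, before Hspa1l. Both 42 °C libraries and both 44 °C libraries had a DoG call past Hspa1b, Hspa8 and Hsph1.

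The counts of called genes in the lists below are to be read beside the share of all tested genes called, which was 71.0% for 44 °C and 63.6% for 42 °C. For H2O2 that share was 53.9% after 2 h and 70.5% after 7 h, and for KCl 54.2% after 2 h and 68.8% after 7 h. The HSP40 genes that feed clients to these chaperones were taken as a list of 15. At 44 °C 10 were higher and 3 lower, with a median of 0.37, led by Dnaja4 (0.92), Dnajb1 (0.89) and Dnaja1 (0.86). At 42 °C 11 were higher and 1 lower, with a median of 0.36, led by Dnajb1 (3.27, SE 0.05), Dnaja4 (2.13) and Dnajb4 (2.05). In KCl the list's median was 0.15 at 2 h, with 6 higher and 3 lower and Dnajb4 highest (1.33), and 0.04 at 7 h, with 5 higher and 4 lower and Dnajb6 highest (1.17). In H2O2 3 were higher and none lower at 2 h, where Dnajb4 rose by 0.59, and 10 were higher and 3 lower at 7 h, with a median of 0.36, led by Dnajc9 (1.92) and Dnajb5 (1.05). Dnajb1, the HSP40 usually paired with inducible HSP70, rose by 0.96 (SE 0.06, adjusted p = 4.96e-09) at 7 h of H2O2, where the pair's RNA fell. The medians of all genes stood between -0.01 and 0.08 in these comparisons. The 9 of 15 called at each KCl time were near the share of all genes called at 2 h and below it at 7 h. Of the efficiency calls, Dnajc2, a ribosome-bound HSP40, fell by 1.34 (SE 0.25, adjusted p = 0.00257) at 2 h and 1.27 (SE 0.23, adjusted p = 0.00286) at 7 h of H2O2 and by 1.11 (SE 0.25, adjusted p = 0.00634) at 2 h of KCl.

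Of 13 further exchange factors and co-chaperones, 7 rose and 2 fell in the 44 °C group, and 10 rose and none fell in the 42 °C group, with medians of 0.52 and 0.36. The 9 of 13 called at 44 °C were close to the 71.0% of all genes. Hsp90aa1, the inducible cytosolic HSP90, rose by 2.24 (SE 0.04, adjusted p = 8.06e-14) and 1.53 (SE 0.04, adjusted p = 1.52e-12). Bag3, an HSP70 exchange factor of selective autophagy, rose by 2.02 (SE 0.05, adjusted p = 1.03e-12) at 42 °C and 0.56 (SE 0.06, adjusted p = 1.21e-06) at 7 h of KCl, and fell by 0.80 (SE 0.06, adjusted p = 3.61e-08) at 7 h of H2O2. Bag5 fell by 0.78 (SE 0.11) at 2 h and 1.69 (SE 0.12) at 7 h of KCl, with adjusted p-values of 2.68e-05 and 1.54e-08, and its footprints fell by 1.69 (SE 0.29, adjusted p = 0.00200) at 7 h. In H2O2 3 were higher and 3 lower at 2 h and 5 higher and 6 lower at 7 h, and in KCl 4 higher and 2 lower and then 7 higher and 4 lower.

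Of 7 HSP70 relatives of other compartments or divergent sequence, Hspa5, the endoplasmic reticulum HSP70, rose by 0.75 (SE 0.04, adjusted p = 1.45e-09) at 44 °C, 0.82 (SE 0.07, adjusted p = 3.89e-07) at 2 h of H2O2 and 0.76 (SE 0.07, adjusted p = 7.52e-07) at 2 h of KCl. In the other direction, and given only to complete its row, Hspa5 fell by 0.13 (SE 0.04, adjusted p = 0.0155) at 42 °C and by 0.23 (SE 0.07, adjusted p = 0.0113) at 7 h of H2O2. In this list 4 rose and 2 fell after 44 °C, and 2 rose and 3 fell after 42 °C. In H2O2 4 rose and 1 fell at 2 h, and 3 rose and 3 fell at 7 h. In KCl 4 rose and 0 fell at 2 h, and 3 rose and 1 fell at 7 h. The list's medians were 0.15 and 0.01 in heat, 0.21 and -0.23 in H2O2 and 0.28 and 0.05 in KCl, and the 5 of 7 called at 42 °C and 4 of 7 at 2 h of KCl were near the 63.6% and 54.2% of all genes. Of the 4 heat shock factors and regulators tested in heat, 2 were higher and 1, Hsf4, was lower at both 44 °C and 42 °C. The medians were 0.209 and 0.145. Hsf1 rose by 0.50 (SE 0.05) and 0.38 (SE 0.05) and Hsf2 by 0.41 (SE 0.06) and 0.42 (SE 0.06) at 44 °C and 42 °C. For H2O2, of 5 tested, 1 was higher and 2 lower at 2 h, and 3 higher and 2 lower at 7 h. Hsf2bp had the largest called change at both H2O2 times. The counts for KCl were 1 higher and 1 lower at each time. In KCl Hsf2 rose by 1.06 (SE 0.07, adjusted p = 1.70e-08) at 2 h and 0.84 (SE 0.07, adjusted p = 1.03e-07) at 7 h, and Hsf4 fell by 0.54 (SE 0.09) and 1.61 (SE 0.10). At 7 h of H2O2 Hsf2 fell by 0.67 (SE 0.07, adjusted p = 1.58e-06) and Hsf4 rose by 0.83 (SE 0.08, adjusted p = 2.46e-07).

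Likeness of pattern was measured as Pearson's r over the 12 stressed RNA libraries, each as log2 CPM minus the mean of its control, among 9326 genes. These libraries share controls and fall into 6 groups, so r is a description. Bag3 was most like the pair (0.965), followed by Bop1 and Vcpkmt (0.964 each). Within the family the pair was most like Hspa8 (0.910) and Hsph1 (0.838). Its r with Hspa2 was negative (-0.540), although both were called higher at 44 °C and at both KCl times. Hsph1 and Hspa4 had an r of 0.964 with each other, and Sgol2a and Agfg2 (0.983 each) were most like Hsph1. Nisch (0.991) and Nrn1 (0.989) were most like Hspa4l, and Fam46b (0.977) and Mex3d (0.970) were most like Hspa8. An r ignores the level and size of changes, so a gene of high r need not change in the member's direction against control. Mex3d changed by -0.30 (SE 0.05) at 44 °C and 0.14 (SE 0.05) at 42 °C, where Hspa8 rose in both. Sgol2a changed by -0.36 (SE 0.07) at 2 h and 0.43 (SE 0.06) at 7 h of KCl, where Hsph1 rose at both times.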

How the data were processed

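The submitters' processing notes name STAR, RSEM, Bowtie and the mm10 build, with no role or order, and per the labels' protocols the RNA was selected for polyadenylated transcripts. The authors deposited expected counts and TPM per gene symbol for RNA and for footprints, and true or false calls and a ratio per neighbouring gene pair for transcription past gene ends. All deposited expected counts were whole numbers. Left aside were 12 columns of per-sample values whose names match none of the labelled samples.

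The members and gene lists were chosen with earlier results of these data known. The expected counts were fitted with edgeR 4.0.16 in R 4.3.3 (TMM normalization, filterByExpr, glmQLFit and glmQLFTest), with groups and no other term. There was 1 fit each for the heat RNA libraries, the other RNA libraries and the footprints, and 1 over RNA and footprints with an interaction of kind and group. Adjusted p-values are Benjamini-Hochberg over all tested genes at 0.05, and SEs and fold changes come from that fit. The sum of Hspa1a and Hspa1b was fitted in a table where it replaced both genes. The fits were tested on simulated counts. Alternatives were DESeq2 1.42.0 and its size factors, no filter on low counts, limma 3.58.1 on log2(TPM + 1), or limma voom for the interaction, the groups compared alone, a replicate block, and each replicate left out.

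Every member is named for RNA in each comparison with control, and only some members in the other comparisons. Genes named from the other lists were among the 3 called genes of largest change against control, and not all of those are named. Hspa5 at 42 °C and at 7 h of H2O2 lay outside those 3. Genes of like pattern are those with the highest r among non-members with a mean log2 CPM of at least 3. Depth limits footprints more than RNA, with library totals of 1460751 to 5168537 against 24441877 to 45244430 counts. Sequences and coordinates are from RefSeq (GRCm38.p6).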

Additional observations from a re-analysis of the deposited data

Results flagged for a closer look

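For the following genes the change against the shared control differed between 2 h and 7 h of the same agent, tested directly as the difference between the times with edgeR's quasi-likelihood test. In RNA under H2O2 Hspa4l fell by 1.00 from 2 h to 7 h (adjusted p = 1.17e-07), and the 7 h level was also lower for Hsph1 (-0.70, adjusted p = 7.36e-08), Hspa1l (-1.53, adjusted p = 3.54e-04), Hspa2 (-0.34, adjusted p = 0.00197) and Hspa8 (-0.23, adjusted p = 0.00253). In RNA under KCl it was higher for Hspa4l (2.19, adjusted p = 1.26e-10), Hsph1 (1.37, adjusted p = 1.86e-10), Hspa2 (0.98, adjusted p = 9.24e-08) and Hspa4 (0.41, adjusted p = 2.81e-05), and lower for Hspa8 (-0.50, adjusted p = 2.61e-06). In these 10 RNA differences the groups of 2 libraries did not overlap in TPM. In footprints under H2O2 the 7 h level was lower for Hspa4l (-1.07, adjusted p = 0.00109) and Hsph1 (-0.84, adjusted p = 0.00644), the latter lost without the first 7 h replicate (-0.82, adjusted p = 0.0525). In footprints under KCl it was higher for Hspa4l (2.59, adjusted p = 3.20e-05), Hsph1 (1.35, adjusted p = 9.84e-04) and Hspa4 (0.61, adjusted p = 0.0407). The Hspa4 call was lost in 6 of 10 alternatives, among them without any 1 of the 4 libraries (adjusted p from 0.0627 to 0.236).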

How the results depend on the processing

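Each value of a member or of the pair was recomputed under 9 to 14 alternatives. Of these member values, 1982 kept their direction and their side of the threshold, 140 lost a call, 49 gained one and 37 changed sign. No value that was called changed sign. In RNA the count of members called at 2 h of H2O2 was 5, and 2 to 4 with a library left out. For footprints at 2 h of H2O2 it was 1, against 2 with RLE size factors, 4 with DESeq2, 3 without the filter on low counts, 0 with limma on log2(TPM + 1), 0 with only the groups compared and 0 to 2 with a library left out. For footprints at 2 h of KCl it was 4, against 2 with limma, 2 with only the groups compared and 2 to 3 with a library left out. It was 2 for footprints of H2O2 at 7 h against 2 h and 1 to 3 with a library left out, and 4 for H2O2 against KCl footprints at 2 h and 2 to 3. For efficiency at 2 h of H2O2 it was 4, against 2 without the filter, 1 with only the groups compared and 2 to 3 with a library left out. At 2 h of KCl it was 2, against 1 each with limma voom, with only the groups compared and with the pair summed, and 0 to 3 with a library left out. At 7 h of KCl it was 1, against 2 each with DESeq2, without the filter and with only the groups compared, 0 with limma voom and 0 to 2 with a library left out. The labels number replicates 1 and 2 in each group, but no label ties a number to a shared batch, and not every same-numbered pair correlated above 0.1, so the numbers were not taken as pairs. Same-numbered deviations correlated at -0.025 to 0.117 in heat RNA, -0.053 to 0.054 in the other RNA, -0.384 to 0.417 in footprints and -0.137 to 0.081 in the interaction, and 6 of 10 footprint pairs were over 0.1. These 6 were all the pairs among the footprint groups other than 2 h of H2O2, at 0.198 to 0.417, and the 4 with that group were at -0.384 to -0.046. With the replicate block the RNA calls of Hspa8 at 2 h of H2O2 and 7 h of KCl were lost (adjusted p = 0.0535 and 0.0552), 2 members were called for footprints at 2 h of H2O2, and the Hspa1l footprint difference from 2 h to 7 h of H2O2 turned to -0.22. The values below changed sign without being called in the fit reported, and the cause was not tested. With limma on log2(TPM + 1), Hspa4 RNA was -0.003 at 7 h of H2O2 and 0.021 between the agents at 2 h, Hsph1 footprints were -0.09 at 2 h of H2O2 and Hspa1b footprints 0.070 from 2 h to 7 h of H2O2. Without the filter on low counts, Hsph1 at 2 h of H2O2 was -0.007 in RNA and 0.026 in efficiency. The others changed sign with a library left out, and their ranges over the libraries follow. RNA at 2 h of H2O2 ranged from -1.026 to 0.148 for Hspa1a and from -0.035 to 0.015 for Hsph1. RNA from 2 h to 7 h ranged from -0.450 to 0.188 for the pair in H2O2, and in KCl from -0.181 to 0.095 for Hspa1a, -0.007 to 0.130 for Hspa1b and -0.037 to 0.123 for the pair. Footprints ranged from -0.130 to 0.191 for Hsph1 at 2 h of H2O2 and from -0.598 to 1.661 for Hspa1l at 7 h. Footprints from 2 h to 7 h of H2O2 ranged from -0.523 to 0.315 for Hspa1b, -1.494 to 0.765 for Hspa1l, -0.129 to 0.331 for Hspa4 and -0.154 to 0.296 for the pair, and in KCl from -0.688 to 0.316 for Hspa1l. Efficiency at 2 h of H2O2 ranged from -0.262 to 0.793 for Hspa1l, -0.205 to 0.082 for Hspa4l and -0.179 to 0.135 for Hsph1, and at 7 h from -0.210 to 0.050 for Hspa4l and -0.277 to 0.066 for Hsph1. In KCl it ranged from -0.142 to 0.399 for Hspa1b and -0.038 to 0.191 for Hspa8 at 2 h, and from -0.066 to 0.251 for Hspa4 and -0.229 to 0.044 for Hspa4l at 7 h.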
